A study of Mus musculus with 6 samples.

Results

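The genes described are the collagen chains, taken from a count table of mouse bone marrow and of macrophages grown from it. They are the 44 of 55536 named genes whose symbol is Col, a number, the letter a and a number, and 34 of the 44 had 10 or more counts in at least 1 library and were judged. A collagen molecule is a rope of intertwined alpha chains, and each chain is the product of its own gene. Fibrillar collagens build the cables of bone, cartilage and the marrow framework, network collagens of type IV build basement membranes, and the remaining classes coat fibrils, form beaded filaments, span the cell membrane or hang on basement membranes. In marrow the fibrillar chains are known as products of osteoblasts and stromal cells, while macrophages are better known for binding and degrading collagen.

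Total RNA of C57BL/6 mice, 8 weeks old, was sequenced in 6 groups with 1 library each. GM-BMDM are marrow cells grown for 7 days with GM-CSF and M-BMDM are marrow cells grown for 7 days with M-CSF. GM-BMDM_3h and M-BMDM_3h were given interleukin-6 (IL6) for 3 h, M-BMDM_24h was given it for 24 h, and BM is uncultured bone marrow. The labels do not say whether libraries came from separate animals or cultures, no sort of the cultured cells is described, and no culture without IL6 was sampled at 24 h beside the M-BMDM library.

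The libraries held between 18511798 and 24134394 counts in named genes. Values below are counts scaled by TMM to a common library size (CPM), and levels of different genes are compared only as CPM per kilobase of transcript. A chain was called higher or lower between 2 libraries when the ratio of scaled counts was at least 2-fold and its exact 95% Clopper-Pearson interval excluded 1. Such intervals cover counting error only, and a pair of single libraries has no replicate check. For a library at 0 counts, a bound on the fold was set against 3 counts there. The summed level of 8 macrophage markers was 47900 CPM in GM-BMDM_3h, 49000 in GM-BMDM, 34080 in M-BMDM, 38660 in M-BMDM_3h and 26360 in M-BMDM_24h, against 6185 in BM, and none of the 8 was at 0 in any library. Most of each sum was Lyz2, at 44360 CPM for GM-BMDM and 26100 for M-BMDM.

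All 44 chains were accounted for. 10 stayed under 10 counts in every library, the highest of them being Col9a1, Col17a1 and Col25a1 with 7 counts each, followed by Col4a4 with 5. Just above the limit were Col10a1, Col13a1 and Col19a1, each with 10 counts in its highest library, Col9a3 with 11, Col4a3 with 12 and Col24a1 with 14. 9 of the 34 judged chains reached 10 counts in 1 library only, which was BM for 7 of them, and 14 reached it in all 6 libraries. The chains that reached it only in a single library other than BM were Col19a1 (M-BMDM) and Col4a3 (GM-BMDM_3h). Hardly any call of lower was open to them there. Counts of how many judged chains moved are therefore partly set by the library in which a chain is high.

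The collagen transcripts of the 3 kinds of cells differed in amount and in kind. Collagen chains made up 0.00524% of all counts in GM-BMDM_3h, 0.00561% in GM-BMDM, 0.0315% in M-BMDM, 0.0322% in M-BMDM_3h and 0.0217% in M-BMDM_24h, against 0.0740% in BM. As a sum of scaled counts this was 58.2 CPM in GM-BMDM_3h, 62.3 in GM-BMDM, 314 in M-BMDM, 332 in M-BMDM_3h and 196 in M-BMDM_24h, against 646 in BM. The sums were higher in the M-CSF cultures than in the GM-CSF cultures, and marrow had the highest of the 6 libraries. Col18a1 alone made up 189 of the 314 CPM in M-BMDM, against 0.975 CPM in BM, and the fibrillar sums lay close together, at 32.1 CPM for GM-BMDM and 30.4 for M-BMDM.

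**Figure D1:**
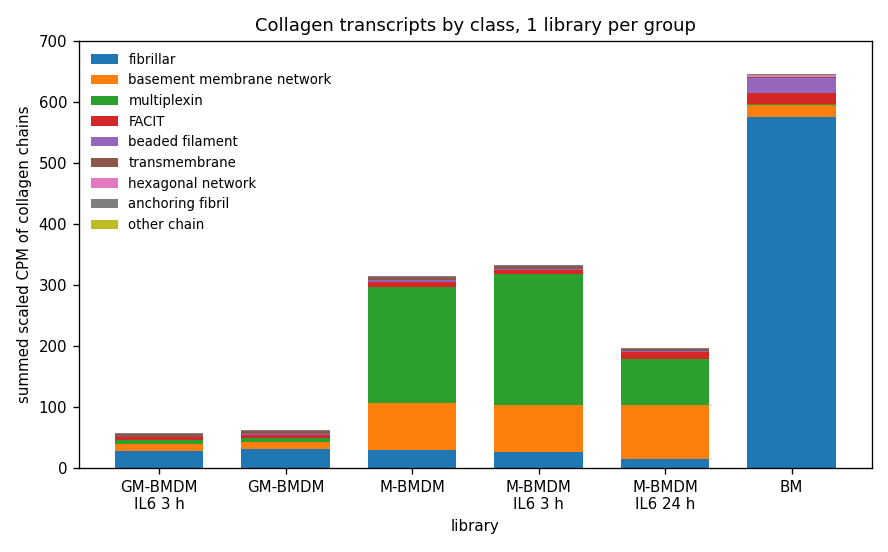
Summed scaled CPM of the collagen chains in each of the 6 libraries (vertical axis, linear from 0), stacked by structural class. Fibrillar chains fill most of the BM bar, multiplexin and basement membrane chains fill most of the M-BMDM bars, and the GM-BMDM bars are the lowest at 58.2 and 62.3 CPM.

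Marrow collagen was fibrillar. Fibrillar chains made up 89.1% of the collagen counts in BM (exact 95% interval 88.6 to 89.6), against 60.8% (59.5 to 62.0) for the multiplexins in M-BMDM, a class of 2 chains that attach to basement membranes. In M-BMDM the basement membrane network chains followed with 24.1% (23.0 to 25.3) and the fibrillar chains with 9.68% (8.94 to 10.5). In M-BMDM_3h the multiplexins made up 64.5% (63.4 to 65.6). After 24 h of IL6 the basement membrane chains held 44.9% (43.5 to 46.3) and the multiplexins 38.6% (37.2 to 40.0), an order that turned when counts were taken per kilobase, with 41.6% for the basement membrane chains and 41.8% for the multiplexins. In the GM-CSF cultures the fibrillar chains led, with 49.0% (46.0 to 52.1) in GM-BMDM_3h and 51.5% (48.8 to 54.2) in GM-BMDM.

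Per kilobase, the leading chain was Col27a1 in GM-BMDM_3h and GM-BMDM (1.07 and 1.24 CPM per kilobase), Col18a1 in M-BMDM, M-BMDM_3h and M-BMDM_24h (33.8, 37.9 and 13.3), and Col1a2 in BM (44.3). Of the 34 judged chains, 19 were highest in BM, 3 in GM-BMDM_3h, 2 in GM-BMDM, 4 in M-BMDM, 3 in M-BMDM_3h and 3 in M-BMDM_24h.

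**Figure D2:**
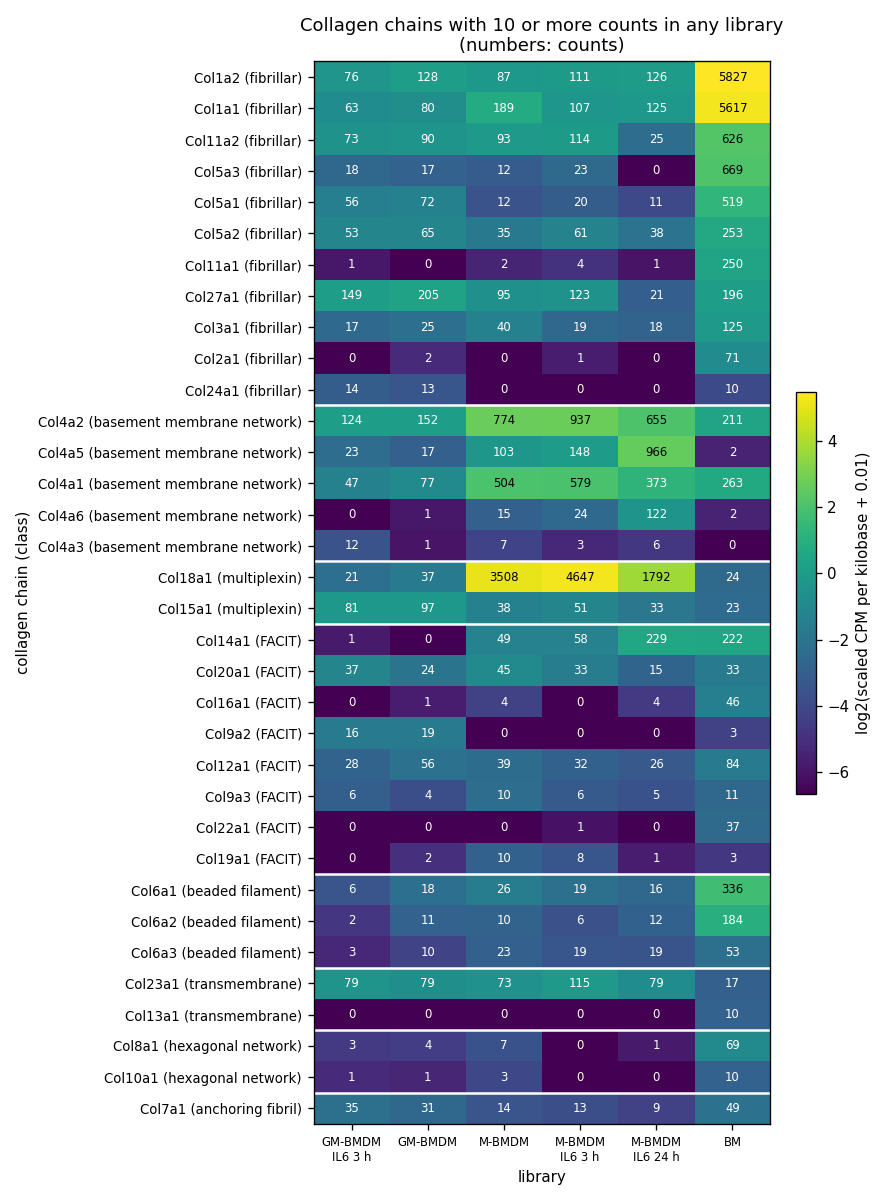
Heat map of the 34 judged chains (rows, grouped by class and parted by white lines) in the 6 libraries (columns). Colour is log2 of scaled CPM per kilobase plus 0.01, and the number in each cell is the count. The fibrillar rows are brightest in BM, and Col18a1, Col4a1 and Col4a2 are bright in the 3 M-BMDM columns.

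In the cultures set against marrow, fibrillar and beaded filament chains were lower, and the basement membrane chains were higher in M-BMDM. In M-BMDM against BM, 9 chains were higher and 18 lower of 34, while 19.3% of the 16616 genes judged were higher and 28.2% lower. The median log2 ratio of the chains was -1.23, beside -0.09 over all genes judged. In GM-BMDM against BM, 4 chains were higher and 19 lower, beside 20.3% and 26.9% of all genes, with a median log2 ratio of -1.78 for the chains and -0.11 over all genes. Both comparisons share the BM library. None of the 11 fibrillar chains was higher in either culture: 10 were lower in M-BMDM and 9 in GM-BMDM. Of these, Col2a1 and Col11a1 reached 10 counts in BM alone, so hardly any call but lower was open to them. Outside the fibrillar class this holds for Col8a1, Col10a1, Col13a1, Col16a1 and Col22a1. All 7 such chains were called lower, except that Col10a1 had no call in M-BMDM. The counts of lower chains and the chain medians above include them.

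Type I collagen, the main cable of bone, is built from the chains Col1a1 and Col1a2. Col1a1 (chromosome 11, 94936224 to 94953042, plus strand, GRCm38) had 3.46 CPM in GM-BMDM_3h, 3.69 in GM-BMDM, 10.2 in M-BMDM, 4.88 in M-BMDM_3h and 5.18 in M-BMDM_24h, against 228 in BM. Col1a2 (chromosome 6, 4504814 to 4541544, plus strand) had 4.17, 5.90, 4.68, 5.06 and 5.22 CPM in the same 5 cultures, against 237 in BM. Every culture lay far below marrow for both chains. Col1a1 was 61.9-fold lower in GM-BMDM (interval 49.7 to 78.2) and 22.4-fold lower in M-BMDM (19.4 to 26.1) than in BM. Col1a2 was 40.1-fold lower in GM-BMDM (33.7 to 48.2) and 50.5-fold lower in M-BMDM (40.9 to 63.2). The ratio of Col1a1 to Col1a2 per kilobase was 0.564 in GM-BMDM (0.421 to 0.751) and 1.96 in M-BMDM (1.51 to 2.56), against 0.869 in BM (0.838 to 0.902). In M-BMDM_3h and M-BMDM_24h the same ratio was 0.869 and 0.895, so M-BMDM was the library with the highest share of Col1a1.

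Type V chains start fibrils of type I collagen and set their width. Col5a1 had 3.07 CPM in GM-BMDM_3h, 3.32 in GM-BMDM, 0.646 in M-BMDM, 0.911 in M-BMDM_3h and 0.456 in M-BMDM_24h, against 21.1 in BM. Col5a2 had 2.91, 2.99, 1.89, 2.78 and 1.58 CPM in these cultures, against 10.3 in BM. Col5a3 had 0.988, 0.783, 0.646 and 1.05 CPM and no count in M-BMDM_24h, against 27.2 CPM in BM. All type V chains were therefore lower in the cultures, Col5a1 by 6.36-fold in GM-BMDM (4.96 to 8.25) and by 32.6-fold in M-BMDM (18.5 to 63.5). Col5a2 was 3.43-fold lower in GM-BMDM (2.60 to 4.58) and 5.45-fold lower in M-BMDM (3.82 to 8.00). Col5a3 was 34.7-fold lower in GM-BMDM (21.5 to 59.9) and 42.1-fold lower in M-BMDM (23.9 to 81.8).

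Type XI and type II chains are fibrillar collagens best known from cartilage. Col11a1 had 1, 0, 2, 4 and 1 counts in GM-BMDM_3h, GM-BMDM, M-BMDM, M-BMDM_3h and M-BMDM_24h, against 250 in BM. Col11a2 kept a level in the cultures, with 73, 90, 93, 114 and 25 counts in the same order, against 626 in BM. Col2a1, the main chain of cartilage fibrils, had 2 counts in GM-BMDM and 0 in M-BMDM, against 71 in BM. Relative to marrow, GM-BMDM had at least 73.5-fold less Col11a1, and it was 94.3-fold lower in M-BMDM, where 2 counts left a wide interval of 25.8 to 783. Col11a2 was 6.13-fold lower in GM-BMDM (4.91 to 7.74) and 5.08-fold lower in M-BMDM (4.08 to 6.38).

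Col3a1, the type III chain of reticular fibres, had 0.933 CPM in GM-BMDM_3h, 1.15 in GM-BMDM, 2.15 in M-BMDM, 0.866 in M-BMDM_3h and 0.747 in M-BMDM_24h, against 5.08 in BM. It was 4.41-fold lower in GM-BMDM (2.85 to 7.07) and 2.36-fold lower in M-BMDM (1.64 to 3.46) than in BM. Col27a1, a fibrillar chain of cartilage, was called lower in neither untreated culture, though its ratio to BM in M-BMDM was 0.6425 (0.4975 to 0.825). It had 8.18 CPM in GM-BMDM_3h, 9.44 in GM-BMDM, 5.12 in M-BMDM, 5.61 in M-BMDM_3h and 0.871 in M-BMDM_24h, against 7.96 in BM, and neither untreated culture was 2-fold away from marrow. Col24a1, a minor fibrillar chain, had 14 counts in GM-BMDM_3h, 13 in GM-BMDM and 0 in each M-BMDM library, against 10 in BM, and was lower in M-BMDM but not in GM-BMDM.

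Col6a1, Col6a2 and Col6a3 form the beaded filaments that surround cells in connective tissue. Col6a1 had 0.329 CPM in GM-BMDM_3h, 0.829 in GM-BMDM, 1.40 in M-BMDM, 0.866 in M-BMDM_3h and 0.663 in M-BMDM_24h, against 13.7 in BM. Col6a2 had 0.110, 0.507, 0.538, 0.274 and 0.498 CPM in these cultures, against 7.47 in BM. Both were lower, Col6a1 by 16.5-fold in GM-BMDM (10.3 to 28.1) and 9.75-fold in M-BMDM (6.54 to 15.1), and Col6a2 by 14.8-fold in GM-BMDM (8.05 to 30.1) and 13.9-fold in M-BMDM (7.38 to 29.4). Col6a3 was 4.67-fold lower in GM-BMDM (2.35 to 10.3) and was not called in M-BMDM, with 23 counts against 53 in BM.

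Further chains that were lower in at least 1 untreated culture had few counts. Col22a1, known from the junction of muscle and tendon, had 0 counts in GM-BMDM and in M-BMDM against 37 in BM, which makes it at least 10.9-fold and at least 9.30-fold lower. Col8a1, of the hexagonal networks under endothelium, had 4 counts in GM-BMDM and 7 in M-BMDM, against 69 in BM. Col16a1, a fibril-associated chain, had 1 count in GM-BMDM and 4 in M-BMDM, against 46 in BM. Col13a1, a transmembrane chain, had no count in either culture and 10 in BM. Col10a1, of hypertrophic cartilage, had 1 count in GM-BMDM against 10 in BM and was called lower there only. Col7a1, of the anchoring fibrils of skin, had 14 counts in M-BMDM against 49 in BM and was 2.64-fold lower (1.43 to 5.18), while its 31 counts in GM-BMDM gave a ratio to BM of 0.717 (0.442 to 1.15) and no call.

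Markers of most other marrow cells were lower in the cultures as well, and this was not particular to stromal cells and osteoblasts. In GM-BMDM, M-BMDM and BM the summed level was 19.2, 2.21 and 36630 CPM for 8 neutrophil markers. It was 5.4, 10.3 and 80580 CPM for 7 erythroid markers and 0.78, 0.54 and 718.5 CPM for 6 B lineage markers. Smooth muscle and pericyte markers did not follow, with sums of 8.29, 12.65 and 9.99 CPM. The summed level of 13 stromal and fibroblast markers lay between 4.85 and 29.9 CPM in the 5 cultures, against 565 in BM. Of the 13, 11 were lower in each untreated culture, beside 26.9% of all genes judged in GM-BMDM and 28.2% in M-BMDM. Postn went the other way and was higher in GM-BMDM, with 159 counts against 19 in BM. The fat and stromal marker Adipoq had no count in any culture. The sum of 10 osteoblast markers lay between 5.81 and 21.6 CPM in the cultures, against 127 in BM. Bglap, the osteocalcin gene, had no count in any culture and Ibsp had 6 counts in M-BMDM_24h and none in the other 4. Most of the osteoblast sum in the cultures was Runx2, with 20.8 CPM for GM-BMDM and 13.9 for M-BMDM, against 46.5 in BM. The part of these cells in the lower fibrillar and beaded filament chains was not tested, and in bulk RNA fewer cells of a type and less RNA per cell cannot be told apart. The sum of 7 chondrocyte markers lay between 1.49 and 2.30 CPM in the cultures, against 1.30 in BM.

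Col18a1 was the chain with the highest level in all 3 M-BMDM libraries. It encodes the core of a basement membrane proteoglycan whose end fragment is endostatin, an inhibitor of vessel growth. The gene lies on chromosome 10, 77052178 to 77166548, on the minus strand (GRCm38). It had 1.15 CPM in GM-BMDM_3h, 1.70 in GM-BMDM, 189 in M-BMDM, 212 in M-BMDM_3h and 74.3 in M-BMDM_24h, against 0.975 in BM. The M-BMDM libraries and the other 3 libraries did not overlap. Relative to BM it was 194-fold higher in M-BMDM (130.0 to 303), from 3508 counts against 24, while in GM-BMDM the ratio was 1.75 (1.02 to 3.06), under the 2-fold limit. Col15a1, the other multiplexin, had 4.44 CPM in GM-BMDM_3h, 4.47 in GM-BMDM, 2.05 in M-BMDM, 2.32 in M-BMDM_3h and 1.37 in M-BMDM_24h, against 0.934 in BM. It was 4.78-fold higher in GM-BMDM (3.01 to 7.90) and 2.19-fold higher in M-BMDM (1.27 to 3.85), and with total counts as the scale the M-BMDM call was lost.

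RefSeq gives Col18a1 more than 1 start, and the 250 bases before 2 of them are printed because the gene counts cannot tell which start was used. The windows lie on the minus strand of GRCm38.p6 at chr10:77113706-77113955 and chr10:77166531-77166780. Capitals mark GC boxes (GGGCGG) and CCAAT, searched on both strands, so that a match on the other strand reads CCGCCC or ATTGG.
Col18a1, inner start: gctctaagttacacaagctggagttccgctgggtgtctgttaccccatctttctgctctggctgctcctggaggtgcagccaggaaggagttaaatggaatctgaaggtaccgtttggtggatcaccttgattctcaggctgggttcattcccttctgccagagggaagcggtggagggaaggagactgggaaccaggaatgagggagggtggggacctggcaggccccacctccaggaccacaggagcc
Col18a1, outer start: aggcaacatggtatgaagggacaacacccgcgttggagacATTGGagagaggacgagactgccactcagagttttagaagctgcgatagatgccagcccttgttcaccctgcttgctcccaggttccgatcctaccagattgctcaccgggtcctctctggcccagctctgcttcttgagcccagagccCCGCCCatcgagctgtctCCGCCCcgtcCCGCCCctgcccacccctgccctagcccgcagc
The inner window held neither motif and 3 CpG sites, and the outer one held 3 GC boxes, 1 CCAAT and 12 CpG sites. Over all 32851 such windows of the genome, 32.7% held a GC box and 33.8% a CCAAT, and the median number of CpG sites was 6.

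Col4a1 and Col4a2 make the network found in nearly all basement membranes. They are neighbours on chromosome 8 and are read in opposite directions from annotated starts at 11312826 (Col4a1, minus strand) and 11312805 (Col4a2, plus strand), so that their first exons share 22 bases. Col4a1 had 2.58 CPM in GM-BMDM_3h, 3.55 in GM-BMDM, 27.1 in M-BMDM, 26.4 in M-BMDM_3h and 15.5 in M-BMDM_24h, against 10.7 in BM. Col4a2 had 6.80, 7.00, 41.7, 42.7 and 27.2 CPM in these cultures, against 8.57 in BM. Both chains were above marrow in every M-BMDM library and below it in both GM-BMDM libraries. Col4a1 was 3.01-fold lower in GM-BMDM (2.33 to 3.94) and 2.54-fold higher in M-BMDM (2.18 to 2.96) than in BM. Col4a2 was 4.86-fold higher in M-BMDM (4.17 to 5.69), and in GM-BMDM its ratio to BM was 0.817 (0.659 to 1.01).

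The pair kept no fixed ratio. Col4a1 over Col4a2 per kilobase was 0.370 in GM-BMDM_3h (0.258 to 0.521), 0.494 in GM-BMDM (0.371 to 0.654), 0.635 in M-BMDM (0.566 to 0.711), 0.603 in M-BMDM_3h (0.542 to 0.669) and 0.555 in M-BMDM_24h (0.488 to 0.631), against 1.22 in BM (1.01 to 1.46). Marrow was the only one of the 6 libraries in which Col4a1 was the higher of the 2.

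Col4a5 and Col4a6 are the other head-to-head pair with counts to judge, on chromosome X. Their chains form the network of certain specialised basement membranes, such as those of smooth muscle, and Col4a5 is also a chain of the kidney filter. The annotated starts are at 141474076 (Col4a6, minus strand) and 141475385 (Col4a5, plus strand), with 1308 bases between them. Col4a5 had 23, 17, 103, 148 and 966 counts in GM-BMDM_3h, GM-BMDM, M-BMDM, M-BMDM_3h and M-BMDM_24h, against 2 in BM. Col4a6 had 0, 1, 15, 24 and 122 counts in the same cultures, against 2 in BM. Both were higher in M-BMDM than in BM, Col4a5 by 68.3-fold (18.4 to 571) and Col4a6 by 9.94-fold (2.31 to 89.6), with intervals set by the 2 counts in marrow. Col4a5 over Col4a6 per kilobase was 6.98 in M-BMDM (4.04 to 12.9), 6.27 in M-BMDM_3h (4.06 to 10.1) and 8.05 in M-BMDM_24h (6.67 to 9.80), and these 3 intervals overlapped.

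The windows before the RefSeq starts of this pair are printed because both genes were higher after IL6 for 24 h. They lie at chrX:141475169-141475418 on the plus strand for Col4a5 and at chrX:141474077-141474326 on the minus strand for Col4a6 (GRCm38.p6), with GC boxes and CCAAT in capitals on either strand.
Col4a5: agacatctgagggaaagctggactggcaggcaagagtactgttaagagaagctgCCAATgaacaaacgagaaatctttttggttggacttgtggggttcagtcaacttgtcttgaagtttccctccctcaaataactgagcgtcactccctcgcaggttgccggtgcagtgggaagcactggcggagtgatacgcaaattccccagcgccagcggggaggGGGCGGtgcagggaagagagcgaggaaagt
Col4a6: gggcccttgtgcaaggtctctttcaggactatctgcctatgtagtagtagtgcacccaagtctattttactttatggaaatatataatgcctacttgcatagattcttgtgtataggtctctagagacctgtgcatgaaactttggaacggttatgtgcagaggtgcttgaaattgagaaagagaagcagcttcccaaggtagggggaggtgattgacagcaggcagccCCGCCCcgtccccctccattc
The Col4a5 window held 1 GC box and 1 CCAAT, and the Col4a6 window 1 GC box. The Col4a5 window runs past the annotated start at 141475385 given above, and by that start its GC box lies inside the gene. The letters of a STAT site (TTCNNNGAA), the family of factors that IL6 activates, were in neither of these windows, nor in either Col18a1 window. Among 35 members with a RefSeq entry, 38 windows were searched on both strands. A GC box was in 57.9% of them, a CCAAT in 34.2% (33.8% of all windows), a TATA box (TATAAA) in 13.2% (12.4% of all windows) and a STAT site in 5.26% (7.02% of all windows). The windows of Col4a1 and Col4a2 were rich in CpG, with 31 and 26 sites.

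Col14a1, which coats fibrils of type I collagen, was near 0 in the GM-CSF cultures. It had 1 count in GM-BMDM_3h, 0 in GM-BMDM, 49 in M-BMDM, 58 in M-BMDM_3h and 229 in M-BMDM_24h, against 222 in BM. Set against BM, its level in GM-BMDM was lower by at least 65.3-fold, and it was 3.42-fold lower in M-BMDM (2.50 to 4.76). Col23a1, a transmembrane chain, had 4.33 CPM in GM-BMDM_3h, 3.64 in GM-BMDM, 3.93 in M-BMDM, 5.24 in M-BMDM_3h and 3.28 in M-BMDM_24h, against 0.691 in BM. It was higher than marrow by 5.27-fold in GM-BMDM (3.09 to 9.50) and by 5.69-fold in M-BMDM (3.32 to 10.3), and the 5 cultures lay close together. The remaining chains above marrow had few counts. In GM-BMDM these were Col9a2, with 19 counts against 3 in BM, and Col4a5, with 17 against 2. In M-BMDM they were Col4a3, with 7 counts against 0, and Col19a1, with 10 against 3. Col19a1 was judged only through its 10 counts in M-BMDM, and its call was lost with total counts as the scale. Col12a1, which coats fibrils like Col14a1, and Col9a3, of cartilage, were called in none of the comparisons made here, although upper-quartile scaling called Col12a1 lower in M-BMDM_24h against M-BMDM.

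**Figure D3:**
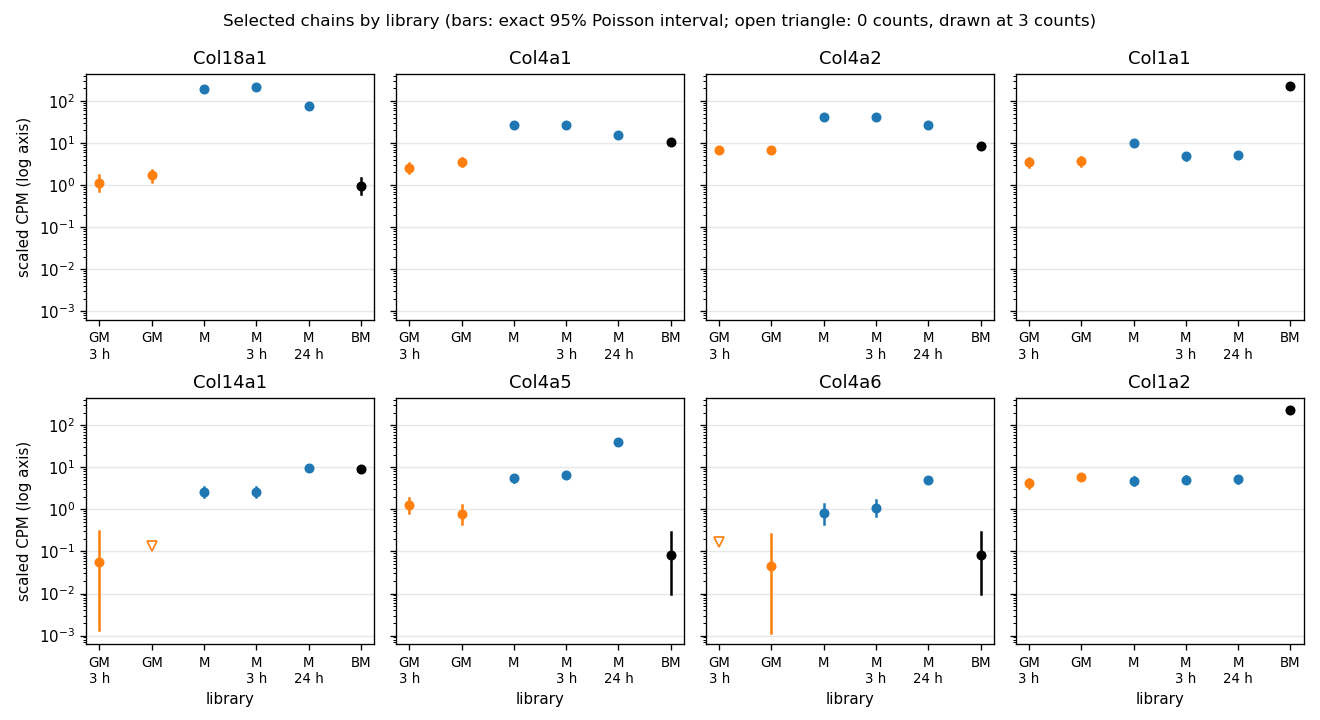
Scaled CPM (log axis) of 8 chains in the 6 libraries, with exact 95% Poisson intervals for the counts. A triangle marks a library with 0 counts, drawn at 3 counts. Col18a1, Col4a1 and Col4a2 lie higher in the M-BMDM libraries than in the GM-BMDM libraries, Col4a5 and Col4a6 are highest after 24 h of IL6, and Col1a1 and Col1a2 are highest in BM.

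The basement membrane chains differed between the GM-CSF and the M-CSF cultures. In GM-BMDM against M-BMDM, 4 chains were higher and 11 lower of 34, while 14.1% of all genes judged were higher and 9.13% lower, and the median log2 ratio was -0.76 for the chains and -0.01 over all genes. With IL6 for 3 h in both cultures (GM-BMDM_3h against M-BMDM_3h), 5 chains were higher and 9 lower, beside 13.4% and 8.37% of all genes. Col18a1 in GM-BMDM was 111-fold below M-BMDM (80.3 to 158), and in GM-BMDM_3h it was 184-fold below M-BMDM_3h (120.1 to 297). Col4a1 was 7.65-fold (6.01 to 9.86) and 10.2-fold (7.60 to 14.1) lower in these comparisons, and Col4a2 was 5.95-fold (4.997 to 7.13) and 6.28-fold (5.20 to 7.63) lower. All 5 judged type IV chains were lower in GM-BMDM, and in GM-BMDM_3h against M-BMDM_3h 4 were lower while Col4a3, with 12 counts against 3, was higher. Col4a3 was judged only through those 12 counts. Among low chains, Col20a1 was lower in GM-BMDM, with 24 counts against 45 in M-BMDM, but not in GM-BMDM_3h, with 37 counts against 33 in M-BMDM_3h and a ratio of 1.35 (0.821 to 2.23), and it did not pass the edgeR test of culture type (log2 change -0.34, adjusted p = 0.517). In GM-BMDM_3h, Col7a1 was higher with 35 counts against 13 in M-BMDM_3h, and Col6a1 was lower with 6 against 19.

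Because each culture type was sequenced with and without 3 h of IL6, these 4 libraries allow a test of the culture type by edgeR's quasi-likelihood test with Benjamini-Hochberg adjustment over 14645 genes. It rests on 1 residual degree of freedom and on a spread shared across all genes, which may be technical. Of 27 chains tested, 6 rose and 9 fell in GM-BMDM relative to M-BMDM, beside 29.4% of all genes tested that rose and 28.4% that fell. The counts of chains lay near these shares. Col18a1 fell by 7.10 on the log2 scale (SE 0.140), with an adjusted p that edgeR wrote as 0. Col4a1 fell by 3.13 (SE 0.154, edgeR adjusted p = 1.88e-88), Col4a2 by 2.62 (SE 0.125, 3.95e-94) and Col4a5 by 2.60 (SE 0.307, 1.73e-16). Col14a1 and Col4a6 fell too, and their log2 changes of -6.40 (SE 0.831, edgeR adjusted p = 8.33e-14) and -4.93 (SE 1.18, 7.99e-05) rest on 1 count each in the GM-BMDM libraries. The other chains that fell were Col1a1, by 1.02 (SE 0.219), Col6a3 and Col19a1. Col19a1, a minor fibril-associated chain, had no more than 10 counts in any library and passed the count minimum through M-BMDM alone.

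The 6 chains that rose in the GM-CSF cultures were Col5a1, Col24a1 and Col27a1 (fibrillar), Col15a1 (multiplexin), Col9a2 (fibril-associated) and Col7a1 (anchoring fibril). Col5a1 rose by 2.02 on the log2 scale (SE 0.430, edgeR adjusted p = 8.38e-06), Col15a1 by 1.02 (SE 0.291, 0.00107), Col27a1 by 0.71 (SE 0.185, 0.000353) and Col7a1 by 1.30 (SE 0.545, 0.0315). Col9a2, a fibril-associated chain of cartilage, had 16 and 19 counts in GM-BMDM_3h and GM-BMDM against 0 in M-BMDM_3h and 0 in M-BMDM, and Col24a1 had 14 and 13 against 0 and 0. Both passed the test, with bounds of at least 5.42-fold and at least 3.71-fold in GM-BMDM over M-BMDM. Col1a2 did not pass, with a log2 change of 0.03 (SE 0.227, edgeR adjusted p = 0.926), and neither did Col5a2, Col11a2 or Col23a1. Col1a1, Col6a3, Col7a1, Col15a1, Col19a1 and Col27a1 lost their calls with the DESeq2 Wald test, which called 9 chains.

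Stromal markers differed between the culture types as well. Their sum was 29.9 CPM in GM-BMDM_3h and 29.6 in GM-BMDM, against 6.29 in M-BMDM_3h and 8.99 in M-BMDM. In GM-BMDM against M-BMDM, 6 of 13 such markers were higher and 1 was lower, beside 14.1% and 9.13% of all genes judged. This was not particular to stromal markers. Higher too were 4 of 8 neutrophil, 3 of 6 megakaryocyte and 2 of 8 endothelial markers, with 0 lower, while 2 of 7 erythroid markers were lower. Thy1 had 97 counts in GM-BMDM and 0 in M-BMDM, Postn had 159 against 9, and Pdgfra had 109 against 12. Adipoq was at 0 in all of these libraries, and Cxcl12 had 13 counts in GM-BMDM and 7 in M-BMDM, against 7730 in BM. The part of stromal or other cells in the higher Col5a1, Col9a2 and Col24a1 was not tested. In the same comparison 1 of 6 smooth muscle and pericyte markers was lower. This was Cspg4, with 10 counts against 115. Of the 8 macrophage markers 4 were lower and 1 higher in GM-BMDM, with a median log2 ratio of -0.82. Csf1r, the M-CSF receptor, was at 1070.0 CPM for GM-BMDM and 3243 for M-BMDM, Adgre1 at 257 and 898, Cd14 at 492 and 1511 and Fcgr1 at 64.0 and 256. Mertk was the higher one, with 1549 counts against 143. These markers were lower beside the lower Col18a1 and type IV chains, and their part in those chains was not tested.

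Few collagen chains were called after IL6 for 3 h, and those called in M-BMDM_3h were lower. In M-BMDM_3h against M-BMDM, 0 of 34 chains were higher and 3 (8.82%) lower, beside 1.52% and 1.99% of all genes. In GM-BMDM_3h against GM-BMDM, 1 (2.94%) was higher and 1 (2.94%) lower, beside 1.17% and 1.8% of all genes. edgeR's test over both pairs called 0 of 27 chains, where it called 0.198% of genes as risen and 0.669% as fallen, and 1 chain had an unadjusted p below 0.05. DESeq2 called 0 and found none below that unadjusted level. The chain was Col1a1, with a log2 change of -0.64 (SE 0.219, edgeR unadjusted p = 0.00358, adjusted p = 0.184), and in a fit of all 6 libraries it passed with an adjusted p of 0.00521. Col1a1 was 2.09-fold lower in M-BMDM_3h than in M-BMDM (1.64 to 2.67), and in GM-BMDM_3h its ratio to GM-BMDM was 0.938 (0.663 to 1.32).

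The other chains called at 3 h had few counts. Col3a1 had 19 counts in M-BMDM_3h against 40 in M-BMDM, and Col8a1 had 0 against 7. In the GM-CSF cultures Col4a3, of the kidney filter, had 12 counts in GM-BMDM_3h against 1 in GM-BMDM, and Col6a2 had 2 against 11. Col4a3 passed the count minimum through GM-BMDM_3h alone. Col4a3 shares 563 exon bases with C430014B12Rik on the opposite strand, which had 12 counts in GM-BMDM_3h and 7 in GM-BMDM, and whether counting used strand is not given in the sources used here. Col18a1 had a ratio of 1.12 in M-BMDM_3h over M-BMDM (1.07 to 1.17), Col4a2 of 1.03 (0.931 to 1.13), and Col4a1 of 0.972 (0.861 to 1.10).

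After 24 h of IL6 the basement membrane chains parted. Col4a5, Col4a6 and Col14a1 were higher in M-BMDM_24h than in M-BMDM, and Col18a1 and several fibrillar chains were lower. Of 34 chains 3 were higher and 9 lower, beside 10.8% and 10.7% of all genes judged, with a median log2 ratio of -0.62 for the chains and -0.08 over all genes. Time in culture and IL6 cannot be told apart here, since the single M-CSF culture without IL6 has no stated match in time.

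Col4a5 had 40.1 CPM in M-BMDM_24h, against 5.55 in M-BMDM, a ratio of 7.22 (5.89 to 8.94). Col4a6 had 5.06 CPM in M-BMDM_24h, against 0.808 in M-BMDM, a ratio of 6.26 (3.65 to 11.5). Col14a1 had 9.50 CPM in M-BMDM_24h, against 2.64 in M-BMDM, a ratio of 3.60 (2.63 to 5.01), which put it close to its marrow level of 9.02 CPM. Set against M-BMDM_3h instead, the ratios in M-BMDM_24h were 5.94 for Col4a5 (4.99 to 7.11), 4.63 for Col4a6 (2.97 to 7.50) and 3.59 for Col14a1 (2.68 to 4.88). All 3 chains were thus above both earlier M-BMDM libraries.

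Col18a1 was 2.54-fold lower in M-BMDM_24h than in M-BMDM (2.40 to 2.69), and 2.85-fold lower than in M-BMDM_3h (2.70 to 3.01). Col4a1 and Col4a2, the common type IV pair, stayed under 2-fold, at 1.75-fold (1.53 to 2.01) and 1.53-fold (1.38 to 1.71) lower than in M-BMDM. Among type IV genes the order per kilobase changed with this: in M-BMDM Col4a2 led with 6.46, before Col4a1 with 4.10 and Col4a5 with 0.849 CPM per kilobase. In M-BMDM_24h Col4a5 led with 6.13, before Col4a2 with 4.21 and Col4a1 with 2.34 CPM per kilobase.

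Col27a1 was 5.87-fold lower in M-BMDM_24h than in M-BMDM (3.63 to 9.92), and Col11a2 was 4.83-fold lower (3.08 to 7.84). Col5a3 had 0 counts in M-BMDM_24h and 12 in M-BMDM, at least 5.19-fold lower. Col20a1, a fibril-associated chain, had 15 counts against 45 and was 3.90-fold lower (2.13 to 7.52), and it shares 79 exon bases on the same strand with BX649560.1, which had 117 counts in M-BMDM_24h and 63 in M-BMDM. Col3a1 was 2.89-fold lower (1.62 to 5.35), Col6a1 had 16 counts against 26, Col19a1 had 1 against 10 and Col8a1 had 1 against 7. Col19a1 passed the count minimum through M-BMDM alone. The calls of Col3a1, Col6a1 and Col8a1 were lost when M-BMDM_3h took the place of M-BMDM. Col1a2 had a ratio of 1.12 (0.842 to 1.48) and Col1a1 was 1.96-fold lower (1.56 to 2.48).

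Beside the higher Col4a5, Col4a6 and Col14a1, markers of other cells were counted in the same comparison. In it 10.8% of all genes judged were higher and 10.7% lower. Of 4 judged chondrocyte markers 2 were higher and 1 lower, which were Matn1 with 11 counts in M-BMDM_24h against 1 in M-BMDM, Matn3 with 10 against 0 and Sox9 with 0 against 14. The stromal sum was 4.85 CPM in M-BMDM_24h and 8.99 in M-BMDM, with 1 of 13 markers higher and 4 lower, and Adipoq, Thy1, Ebf3 and Fbln1 were at 0 in M-BMDM_24h. The marker that was higher was Postn, with 29 counts against 9. Of 6 smooth muscle and pericyte markers 0 were higher and 0 lower, and of 8 endothelial markers 0 were higher and 3 lower. Of 7 judged osteoblast markers 1 was lower. Of 8 macrophage markers 1 was higher and 1 lower. The part of any of these cells in the higher chains was not tested.

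**Figure D4:**
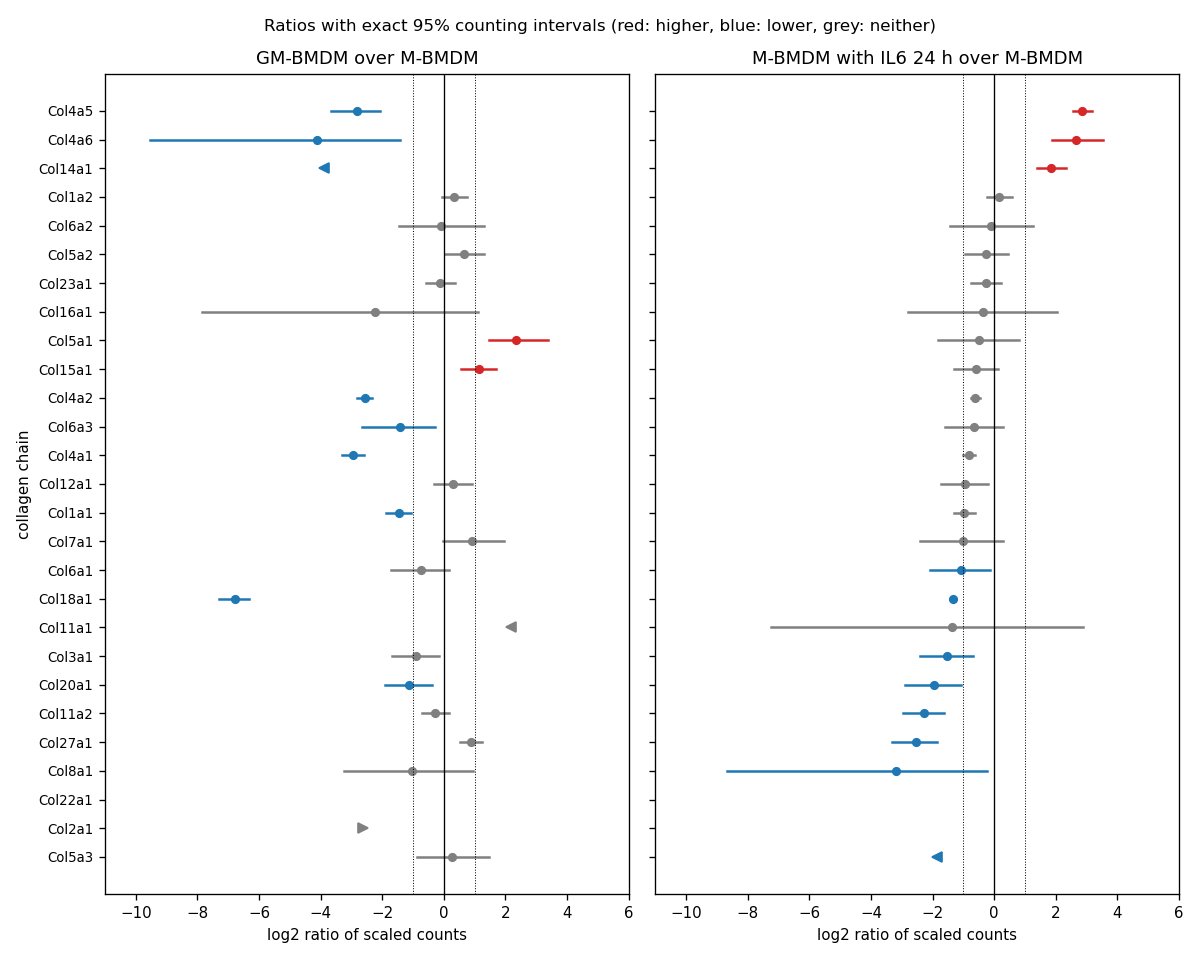
Log2 ratios of scaled counts with exact 95% counting intervals for the 27 chains with 20 or more counts in any library, for GM-BMDM over M-BMDM and for M-BMDM_24h over M-BMDM, with rows sorted by the M-BMDM_24h panel. Red chains were called higher, blue lower and grey neither, dotted lines mark 2-fold, and a triangle marks the end of an interval that is open where 1 library had 0 counts. Col18a1 lies farthest to the left in GM-BMDM over M-BMDM, and Col4a5, Col4a6 and Col14a1 lie to the right after 24 h.

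The enzymes, chaperones, receptors and proteases that act on collagen were counted in 5 further lists with 50 judged genes. In M-BMDM against BM 14 were higher and 23 lower, in GM-BMDM against BM 18 were higher and 17 lower, and in GM-BMDM against M-BMDM 12 were higher and 7 lower. In M-BMDM_24h against M-BMDM 3 were higher and 8 lower. Over all genes judged, 19.3% were higher and 28.2% lower in M-BMDM against BM, and 20.3% and 26.9% in GM-BMDM against BM. The shares were 14.1% and 9.13% in GM-BMDM against M-BMDM, and 10.8% and 10.7% in M-BMDM_24h against M-BMDM. The same shares stand beside the counts of each list below.

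Genes for chain modification were mostly higher in the cultures, with 10 higher and 1 lower of 14 in GM-BMDM and 8 higher and 2 lower in M-BMDM, against BM. P4ha1, a prolyl hydroxylase subunit that makes collagen helices stable, was at 75.7 CPM for GM-BMDM and 157 for M-BMDM, against 16.2 in BM. Plod1, a lysyl hydroxylase, was at 129 CPM for GM-BMDM and 171 for M-BMDM, against 19.9 in BM. Set against marrow, these levels ran opposite to those of the type I chains. Colgalt1, which adds galactose to collagen, had 519.7 CPM in GM-BMDM, against 187 in M-BMDM and 101 in BM. P4hb, the other prolyl hydroxylase subunit and a general folding enzyme, was at 765 CPM for GM-BMDM and 578 for M-BMDM, against 345 in BM.

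Genes for folding and export were mixed. Serpinh1, the collagen chaperone HSP47, was at 1.89 CPM for GM-BMDM and 1.62 for M-BMDM, against 12.4 in BM, and Sparc, a collagen-binding glycoprotein of bone, had 3.32 and 4.20 CPM in these cultures, against 89.6 in BM. Of 6 genes for folding and export 3 were lower in each untreated culture, with 1 higher in GM-BMDM and 0 in M-BMDM. The higher one was Fkbp14, a folding enzyme of the endoplasmic reticulum, with 41 counts in GM-BMDM against 12 in BM, and Mia2 and Mia3, which help export procollagen, were called in neither culture. Of 9 genes for propeptide removal and crosslinking 6 were lower and 1 higher in each. Adamts2, which trims procollagen, had 12 counts in GM-BMDM and 9 in M-BMDM, against 218 in BM. Lox, which crosslinks fibrils, was the higher one, at 32.7 CPM for GM-BMDM and 15.3 for M-BMDM, against 2.72 in BM.

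Genes for collagen receptors and uptake were mixed, with 2 higher and 5 lower of 13 in GM-BMDM and 3 higher and 7 lower in M-BMDM, against BM. Itgb1, the beta chain shared by the collagen-binding integrins, was at 557 CPM for GM-BMDM and 853 for M-BMDM, against 174 in BM. Mrc1, the mannose receptor, which takes up collagen, had 363 CPM in GM-BMDM, against 77.0 in M-BMDM, and Lair1, an inhibitory collagen receptor, had 48.3 in GM-BMDM, against 139 in M-BMDM. Itga1, an alpha chain of a collagen integrin, was at 46.0 CPM for GM-BMDM and 4.15 for M-BMDM.

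Among 8 judged genes for collagen cleavage 4 were lower and 0 higher in M-BMDM_24h than in M-BMDM. Of all genes judged, 10.7% were lower and 10.8% higher. Mmp14, a membrane collagenase, had 309.7 CPM in M-BMDM, 359 in M-BMDM_3h and 16.0 in M-BMDM_24h, and it was 19.3-fold lower at 24 h than in M-BMDM. Mmp13, a soluble collagenase, had 76.3, 60.6 and 6.63 CPM in the same series, and Mmp9, a gelatinase, had 53.1, 57.6 and 6.39. None of these 3 proteases was called at 3 h, and all 3 were lower at 24 h. In GM-BMDM against M-BMDM, Mmp8, the neutrophil collagenase, had 513.8 CPM against 9.64, and Ctsk, the collagenase of osteoclasts, had 114 against 8.89. Lox had 4.56 CPM in M-BMDM_24h against 15.3 in M-BMDM, and Loxl3, a related oxidase, had 6.88 against 2.96.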

How the data were processed

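RNA sequencing gave 1 library for each of 6 groups. The authors deposited a table of estimated counts for each gene. Per the submitters' processing notes, the build was GRCm38 and the tools named are HISAT2, StringTie and DESeq2 (versions not given in the sources used here). From 24.7% to 27.7% of a library's values above 0 were fractional, and these expected counts were rounded to whole numbers. Of 56278 rows, 742 had no gene name and held from 0.240% to 0.522% of the counts and took no part in totals or tests.

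Scaling used TMM factors from edgeR 4.0.16 in R 4.3.3, and levels per kilobase used the deposited gene lengths, which equalled the longest GENCODE M21 transcript for 86% of the rows with annotated exons. Genes were judged with 10 or more counts in any library, and pairs were called at 2-fold with an exact interval that excluded 1. edgeR's quasi-likelihood test used the GM-BMDM_3h, GM-BMDM, M-BMDM_3h and M-BMDM libraries with terms for culture type and IL6, a threshold of 0.05, a coefficient of variation of 6.77% and infinite prior degrees of freedom. Its p-values measure only the spread of these 4 libraries, which may be technical. Reads were counted without molecular identifiers, so intervals and bounds cover counting error alone.

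The collagen chains and the other gene lists were chosen with earlier results of these data known. Chains with 100 or more counts in any library were given in all libraries, chains with fewer when a pair called them, and of each further list up to 4 members by level plus up to 4 called between cultures; values of Adipoq, Bglap, Ibsp, Cxcl12, Serpinh1 and other single markers were chosen after they were seen. Promoter windows came from RefSeq (GRCm38.p6). Alternatives covered scaling, count and CPM minimums, fold, rounding, filters, the DESeq2 1.42.0 Wald test and other designs. The steps were tested on simulated data.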

Additional observations from a re-analysis of the deposited data

Results flagged for a closer look

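Col4a1, a chain of the common basement membrane network, was on opposite sides of marrow in the 2 kinds of culture. Its log2 ratio to BM was -1.59 in GM-BMDM and 1.35 in M-BMDM, from 77 counts in GM-BMDM, 504 in M-BMDM and 263 in BM. Each kind of culture has 1 untreated library and both are set against the same BM library, so the difference between these 2 ratios was not tested on its own. The levels with IL6 for 3 h lay on the same sides, with 2.58 CPM in GM-BMDM_3h and 26.4 in M-BMDM_3h, against 10.7 in BM. The edgeR test of culture type, which leaves BM out, gave a log2 change of -3.13 in GM-BMDM relative to M-BMDM (SE 0.154).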

How the results depend on the processing

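The other settings gave 853 values of single chains. Of these, 808 kept their side of the threshold, 41 lost the call and 4 gained it. Asking for 1 scaled CPM in the higher library accounted for 26 of the lost calls. Among chains called in the main setting, 0 reversed direction. The 808 include chains called in neither setting, and some of these changed sign. Col18a1 in the IL6 test had a log2 change of 0.105 by edgeR and -0.105 by the DESeq2 Wald test. At a fold of at least 4, 1 chain was called in M-BMDM_3h against M-BMDM in place of 3, and 7 in M-BMDM_24h against M-BMDM in place of 12. In GM-BMDM_3h against GM-BMDM, where 2 were called, a minimum of 20 counts left 1, a minimum of 1 scaled CPM left 0 and a fold of 1.5 gave 4. In GM-BMDM_3h against M-BMDM_3h, the minimum of 1 scaled CPM left 8 of 14. The culture type test called 9 chains with the DESeq2 Wald test in place of 15, and the IL6 test called 1 (Col1a1) in the fit of all 6 libraries in place of 0; the cause was not tested. Per kilobase, the fibrillar share in BM was 88.5%, the multiplexin share was 63.4% in M-BMDM and 67.3% in M-BMDM_3h, and the basement membrane share in M-BMDM_24h was 41.6%. Scaling by total counts moved all log2 ratios to BM by between -0.35 (GM-BMDM) and -0.05 (M-BMDM_24h); it ended the calls of Col15a1 and Col19a1 in M-BMDM against BM, Col6a1 in M-BMDM_24h against M-BMDM, Col15a1 in GM-BMDM against M-BMDM and Col7a1 in the edgeR test. Chosen after seeing the data, M-BMDM_3h as the library set against M-BMDM_24h called 9 chains and the fold without its interval called 29 in M-BMDM against BM.

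Each group has 1 library, so no replicate was left out and no fit had a replicate block; the edgeR fit of 4 libraries compares IL6 within each culture type. Chains with under 20 counts carry wide intervals, and a difference among them was not detectable at this depth unless it was several fold.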
